A study of Mus musculus with 30 samples.

Results

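For every gene, the change that came with lymphoma was measured separately in the lymph node and the spleen of the same mice, and the difference between the 2 organs' changes was tested. The comparison used 24 of the 30 arrays, which are the node and the spleen of 12 of the 15 mice: 6 mice with lymphoma and 6 without a tumour. For each mouse the spleen value was subtracted from the node value, and the 6 subtractions of the lymphoma mice were set against the 6 of the tumour-free mice. A difference above 0 means that the node's change was the more positive one, and a difference below 0 that it was the more negative one. The values cover 19938 genes, each read from the probe set with the highest mean among those assigned to that gene symbol alone.

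The study measured RNA in mice of the Tg26 line on Affymetrix arrays. Tg26 mice carry a copy of the HIV-1 provirus pNL4-3 that lacks part of gag and pol, so no infectious virus is made. All 12 mice were heterozygous for the transgene on the FVB/N strain and, per the labels, 5 to 12 months old, with the transgene present in the tumour-free mice (called asymptomatic below) as much as in the lymphoma mice. The other 3 mice were FVB/N animals without the transgene and give a reference for normal tissue. The labels do not give the age or sex of each mouse, the site of each node, or whether nodes were pooled. The spleen of lymphoma mouse 4 has a disease code that the labels otherwise give to FVB/N mice, while its title and description say lymphoma; it was kept as lymphoma.

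Spleen and lymph node are both built around B cell follicles and T cell zones, but their frames differ. A lymph node filters lymph: its sinuses are lined by lymphatic endothelium and by macrophages carrying Siglec1, Marco and Cd209b, fibroblastic cells make the chemokines Ccl19, Ccl21 and Cxcl13, and lymphocytes enter through high endothelial venules, whose cells secrete Glycam1. The spleen filters blood, and its red pulp holds macrophages that recycle iron, erythroid cells and megakaryocytes. B lymphoblasts carry the signature of early B cells: the recombinase Rag1, the surrogate light chain gene Igll1 and its relative Vpreb3, and the transcription factors Pax5 and Ebf1.

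The node arrays carried node markers. Glycam1 had a log2 level of 8.22 at the lowest, 11.18 at the median and 11.73 at the highest in the asymptomatic nodes, against 5.55, 5.89 and 6.07 in the asymptomatic spleens. The spleen's own markers were less clear: Tlx1, a transcription factor needed to form the spleen, had 6.18, 6.33 and 6.42 in asymptomatic spleens beside a median of 6.26 in the nodes, and Cd209b, listed as a marker of the splenic marginal zone, was higher in nodes than in spleens. The node array of asymptomatic mouse 6 stands apart. It had Tlx1 at 8.21 and Tcf21, another gene of the splenic mesenchyme, at 8.58. Its erythroid genes averaged 9.16 where those of the other asymptomatic nodes averaged 6.17 to 6.54. Asymptomatic spleens had Tcf21 at 5.58 to 5.87 and erythroid means of 7.38 to 8.45, so this node exceeded every one of them. The same node also carried the node gene Ccl19 at 9.82. Without mouse 6 the number of genes called below was 1821 instead of 1495.

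The asymptomatic nodes also carried transcripts of the tissue that lies around nodes. The mean level of 19 adipose genes was 9.27, 10.69, 10.83 and 10.88 in nodes of the asymptomatic mice 2 to 5, against 7.13 and 7.36 in mice 1 and 6. It was at most 6.92 in the lymphoma nodes. The mean of pancreatic enzyme genes was 11.50 and 13.03 for asymptomatic nodes 5 and 6, that of salivary genes 7.37 and 8.47 for nodes 2 and 3, and that of muscle genes 8.68 and 7.71 for nodes 3 and 4. Among the lymphoma nodes, that of mouse 5 had a salivary mean of 7.0. In bulk tissue fewer cells of a type and less RNA per cell cannot be told apart, and this holds for every level below.

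**Figure D1:**
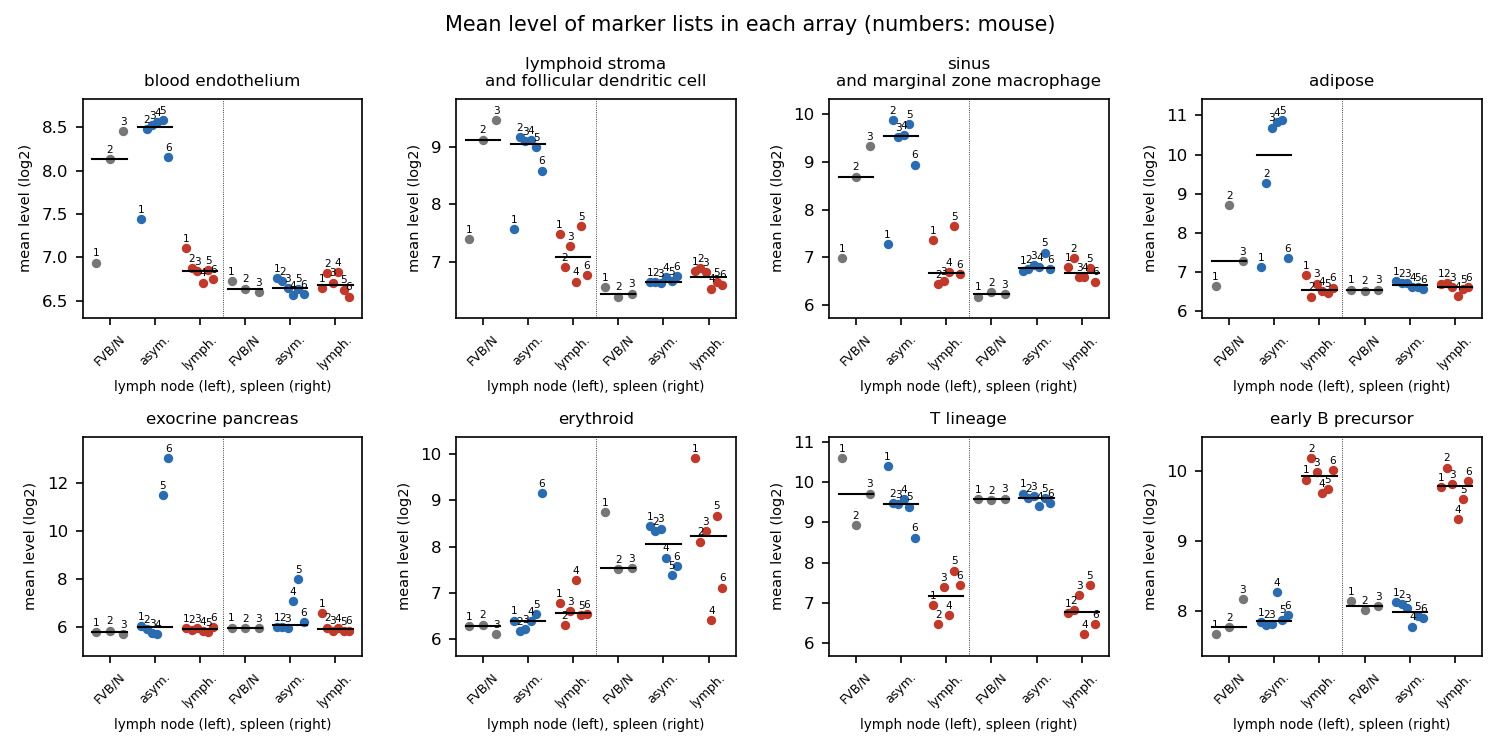
Mean log2 level of 8 gene lists in each array (vertical), with nodes on the left and spleens on the right of each panel, 1 point per array numbered by mouse and a bar at the group median. Blood endothelium and stroma genes stood between 7.44 and 9.17 in asymptomatic nodes and lay lower in every lymphoma node except for an overlap of stroma values, while the adipose mean was above 9 in 4 asymptomatic nodes only.

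Node and spleen lay closer to each other in the lymphoma mice. The median absolute distance between node and spleen over all genes was 0.26 ± 0.0384 log2 units in the asymptomatic mice (SD, n = 6; 0.192 to 0.306) and 0.196 ± 0.0176 in the lymphoma mice (SD, n = 6; 0.164 to 0.214). The ranges overlapped through asymptomatic mouse 1 alone, at 0.192, whose node had the lowest adipose mean of its group (7.13). The other asymptomatic mice stood at 0.255 to 0.306. The group difference of -0.0635 had an exact permutation p of 0.0108 (two-sided, over all arrangements of the 12 mice, smallest possible 0.00216). Within the first array batch the difference was -0.0534 (exact permutation p = 0.3) and within the second it was -0.0736 (exact permutation p = 0.1), where 3 mice against 3 cannot go below 0.1. With the genes of the neighbouring tissue lists left out the difference was -0.0631 (exact permutation p = 0.0108). Those lists hold 12 to 23 measured genes each of the 19938, so a median over all genes could hardly move. This setting therefore cannot test what part surrounding tissue had.

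Gene by gene, 1495 of 19938 genes (7.5%) had a change that depended on the organ (limma on the within-mouse differences, Benjamini-Hochberg adjusted p under 0.05). The difference was above 0 for 445 genes (2.23%) and below 0 for 1050 (5.27%), and 747 differed by at least 1 log2 unit. The share above 0 was 29.8%, and it was 40.2% after quantile normalization and 65.2% after centring each array on its median, which moved the median difference of all genes from 0.089 to 0.228. Of the 1495 genes, 1439 (96.3%) had node and spleen closer in lymphoma than in asymptomatic mice, compared with 14155 of all 19938 genes (71.0%). This share follows in part from the arithmetic, since the tested difference is the signed node-minus-spleen distance in lymphoma minus that in asymptomatic mice. For the called genes the median distance went from 0.96 to 0.14 log2 units. The first array batch alone called 23 genes and the second 533. In 486 of the 1495 genes the lymphoma and asymptomatic mice did not overlap, as in 554 of all genes.

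The organ differences that closed were also present in FVB/N mice, whose arrays were not part of the test that called these genes. Of the 1495 genes, 1462 (97.8%) had a mean node-minus-spleen difference of the same sign in the 3 FVB/N mice as in the asymptomatic Tg26 mice, against 15101 of all 19938 genes (75.7%). The median absolute difference of the called genes was 0.83 log2 units in FVB/N and 0.96 in asymptomatic mice. Over all genes it was 0.17 in asymptomatic mice. Large differences keep their sign more often than small ones, so the 97.8% follows in part from how the genes were chosen. No comparison at matched size was made. For Cd79b, of the B cell receptor, the node-minus-spleen difference was -1.33 ± 0.19 in FVB/N mice (SD, n = 3), -0.97 ± 0.30 in asymptomatic mice (SD, n = 6) and 0.02 ± 0.13 in lymphoma (SD, n = 6). For the macrophage receptor Siglec1 it was 2.91 ± 1.62 in FVB/N and 3.63 ± 1.07 in asymptomatic mice (SD), with a wide spread among the FVB/N nodes. Those nodes also carried neighbouring tissue: the adipose mean was 8.71 in mouse 2, and the salivary mean was 9.76 and 8.11 in mice 2 and 3.

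The number of calls depended on which asymptomatic mice were included. It was 1 gene without asymptomatic mice 2 to 5, whose nodes carried the most adipose RNA, 280 without mice 3 and 4, and 995 without mice 5 and 6. The first of these fits set 2 asymptomatic mice against 6 lymphoma mice, and fewer mice by themselves remove calls. All 1495 differences kept their sign in that fit, which shares its mice with the reported one. The number of calls was 0 when the adipose, pancreas and salivary scores of each mouse entered the fit. At an unadjusted limma p under 0.05 there were 723 genes, and 1366 of the 1495 differences kept their sign there. The adipose mean did not overlap between asymptomatic and lymphoma nodes, so this fit cannot tell lymphoma and surrounding fat apart. Of the 118 called genes chosen for naming, 0 passed with these 3 scores and 1, Cxcl10, without mice 2 to 5. Where either setting moved the difference by more than 1.5 times, both values are given, for called genes whose difference or organ changes are printed below. Leaving out single mice gave between 827 genes (without asymptomatic mouse 3) and 2947 (without asymptomatic mouse 1), and the count was 961 without asymptomatic mouse 4, 843 without asymptomatic mouse 5 and 944 without lymphoma mouse 2. Without the mouse as a block, that is with node and spleen arrays treated as separate animals, 761 genes were called.

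**Figure D2:**
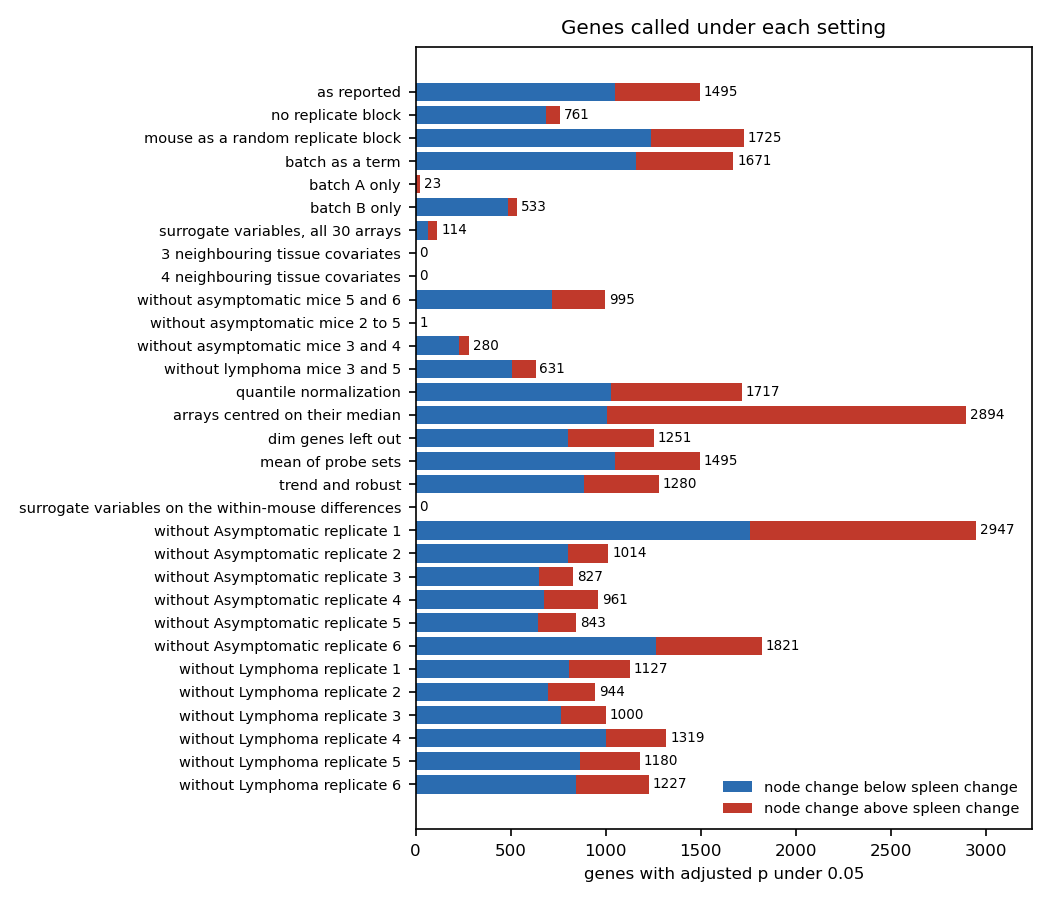
Number of genes whose lymphoma change differed between node and spleen (adjusted p under 0.05), in the reported fit and in each alternative, split by direction of the difference. The reported fit gives 1495 genes, single-mouse omissions give 827 to 2947, and the fits with neighbouring tissue scores give 0.

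The node carried most of the differences. In the node 4477 genes changed with lymphoma (22.5%) and in the spleen 3266 (16.4%), by limma on 6 against 6 arrays in each organ. Of the 1495 organ-dependent genes, 1166 (78%) had the larger change in the node. A change was called in the node and not in the spleen for 872 genes (58.3%), of which 748 were lower and 124 higher in lymphoma nodes. A change was called in the spleen and not in the node for 225 genes (15.1%), of which 94 were higher and 131 lower in lymphoma spleens. Both organs changed in the same direction for 127 genes with the larger change in the node and for 29 with the larger change in the spleen. The directions were opposite for 17 genes, and for 225 neither organ's change was called by itself.

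The 748 genes that fell in the node only had a median change of -1.28 log2 units there and -0.03 in the spleen. All 748 were higher in the node than in the spleen of asymptomatic mice, which follows in part from the arithmetic of the tested difference. Of the 748, 609 (81.4%) lay in the asymptomatic spleen below 6.99, the median level over all genes there, which 49.9% of all genes do. The spleen thus left these genes little room to fall, and for them the absence of a called change in the spleen does not show that it did not change. The remaining 139 stood at or above that level.

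**Figure D3:**
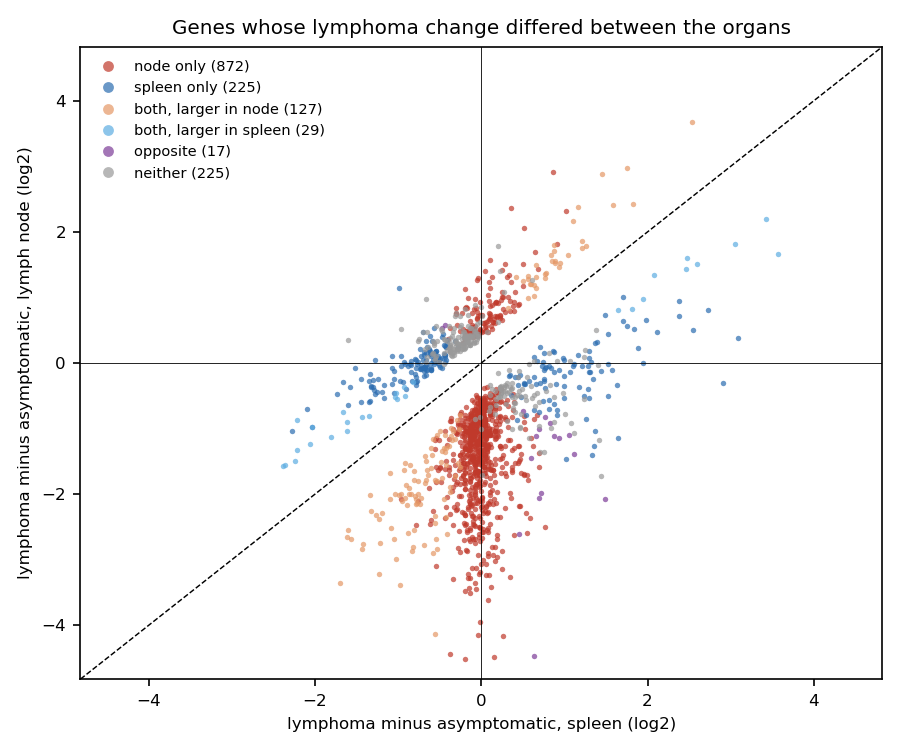
Lymphoma change in the spleen (horizontal, log2) against the change in the node (vertical, log2) for the 1495 organ-dependent genes, coloured by the organ in which the change was called; the dashed line marks equal change. The densest group, 748 genes, lies below 0 on the node axis and near 0 on the spleen axis, and the 94 genes that rose in the spleen only lie to the right of it.

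Genes of blood vessel endothelium fell in the node, 20 of 23 with none rising, while in the spleen 3 fell and 2 rose. For 19 the difference between the organs was called below 0 and for 1, the lymphocyte egress receptor S1pr1, above 0, with a list median of -1.49 against 0.089 over all genes. The shares over all genes, for this list and those below, were 5.27% below 0 and 2.23% above. Within the organs 22.5% of all genes changed in the node and 16.4% in the spleen. The median change was -1.36 in the node and -0.04 in the spleen, and 18 of the 23 lay below the median level of all genes in the asymptomatic spleen. Tie1, an endothelial receptor kinase, had levels of 7.15, 8.04 and 8.30 (lowest, median, highest) in asymptomatic nodes and 6.05, 6.22 and 6.63 in lymphoma nodes. In spleens it stood at 5.94 to 6.31 in asymptomatic and 5.83 to 6.33 in lymphoma mice. The node groups did not overlap, the spleens overlapped throughout, and lymphoma nodes reached the level of spleen. The difference was -1.62 ± 0.18 log2 units (SE, n = 6 and 6; limma adjusted p = 0.00162), -0.98 with the 3 neighbouring tissue scores in the fit and -1.26 without asymptomatic mice 2 to 5.

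The promoter of Tie1 is shown as that of an endothelial gene whose change was called in the node alone, with the letters bound by ETS factors, which act at many endothelial genes. In RefSeq (GRCm38.p6) the 250 bases before its start lie at chr4:118489850-118490099 on the minus strand and read, 5′ to 3′ on the gene's strand, with the letters of the ETS search (AGGAAG on either strand) in capitals:
Tie1: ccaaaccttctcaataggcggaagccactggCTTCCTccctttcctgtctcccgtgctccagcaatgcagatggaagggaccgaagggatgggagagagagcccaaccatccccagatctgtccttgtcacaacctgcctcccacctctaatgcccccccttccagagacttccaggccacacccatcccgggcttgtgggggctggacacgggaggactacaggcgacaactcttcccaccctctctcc
These letters occur in 29.5% of 32817 promoter windows of the same length. The match describes the sequence and is not evidence of binding.

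Other endothelial genes had differences in the same direction. Ptprb, the vascular phosphatase that acts on the Tie receptors, had levels of 6.87, 8.69 and 9.31 in asymptomatic nodes, 5.58, 5.69 and 6.10 in lymphoma nodes, and between 5.45 and 5.87 in all spleens of both groups. The node groups were apart, and the difference was -2.59 ± 0.29 (SE, adjusted p = 0.00162). Tek, the angiopoietin receptor, differed by -2.20 ± 0.26 (adjusted p = 0.00186). Cdh5, the cadherin of endothelial junctions, fell by 2.83 in the node and by 0.53 in the spleen, a difference of -2.31 ± 0.32. With the 3 tissue scores the differences were -1.43 for Ptprb, -1.02 for Tek and -1.02 for Cdh5. Without asymptomatic mice 2 to 5 they were -2.29, -1.56 and -1.41. Egfl7, a factor secreted by endothelium, had opposite changes: it fell in the node by 1.01 and rose in the spleen by 0.70.

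Stromal and follicular dendritic cell genes had the same form. In the node 15 of 17 fell and none rose, and in the spleen 2 fell and 3 rose. None of the 17 had a difference above 0 and 13 were below 0 (C4b, Ccl19, Clu, Cxcl12, Cxcl13, Il33, Il7, Ltbr, Mfge8, Pdgfra, Pdgfrb, Prnp and Tnfsf13b), with a list median of -1.70. Ccl19, the chemokine that draws T cells and dendritic cells into the T zone, had levels of 8.42, 10.78 and 11.59 in asymptomatic nodes and 6.87, 7.37 and 8.28 in lymphoma nodes. Its spleens lay between 6.57 and 7.47 in both groups. The node groups did not overlap, and the difference was -3.03 ± 0.50 (SE, adjusted p = 0.00362), but -1.28 with the 3 tissue scores and -1.60 without asymptomatic mice 2 to 5. Genes of the extracellular matrix followed, with 14 of 23 below 0 and none above, a median of -0.92, and decorin (Dcn) at -3.53 ± 0.76 (-2.61 and -2.26 in the same settings).

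Genes of sinus and marginal zone macrophages fell in the node for 7 of 8 and in the spleen for 2. Of 8 genes, 6 were below 0 and none above (Cd209b, Colec12, Marco, Nr1h3, Siglec1 and Stab1), with a median of -1.89. Siglec1, the sialic acid receptor of subcapsular sinus macrophages, had levels of 8.01, 10.46 and 11.02 in asymptomatic nodes, 6.24, 6.78 and 8.05 in lymphoma nodes, and 6.05 to 7.12 in all spleens. The lowest asymptomatic node, that of mouse 1, lay within the lymphoma range. The difference was -3.12 ± 0.47 (adjusted p = 0.00262), and -1.40 with the 3 neighbouring tissue scores and -1.94 without asymptomatic mice 2 to 5. Cd209b, a lectin of the same cells, stood at 9.51, 11.72 and 12.20 in asymptomatic nodes and 5.78, 7.02 and 8.23 in lymphoma nodes, with no overlap and a difference of -3.58 ± 0.61 (adjusted p = 0.00413). Marco, a scavenger receptor, differed by -2.98 ± 0.41 (adjusted p = 0.00197). Timd4, which binds dying cells, was the 1 of 19 red pulp and iron recycling genes that was called, at -2.95 ± 0.50. With the 3 tissue scores the differences were -1.80 for Cd209b, -1.40 for Marco and -1.49 for Timd4. Without asymptomatic mice 2 to 5 they were -2.10, -2.06 and -1.85.

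Of 12 lymphatic endothelial genes 7 fell and 1 rose in the node, and 0 fell and 1 rose in the spleen. Of 10 high endothelial venule genes 5 fell and 1 rose in the node, and 3 fell and 2 rose in the spleen. Of 12 lymphatic genes 6 were below 0 (Flt4, Lyve1, Mmrn1, Prox1, Reln and Stab2) and none above, median -1.21. Lyve1, the hyaluronan receptor of lymphatic endothelium, had levels of 7.78, 9.71 and 10.48 in asymptomatic nodes, 5.84, 6.07 and 7.30 in lymphoma nodes and at most 5.96 in spleens. The groups of nodes did not overlap, and the difference was -3.03 ± 0.48 (adjusted p = 0.00336). Prox1, which sets lymphatic identity, differed by -1.81 ± 0.33 (adjusted p = 0.00533), but only by -0.14 with the 3 tissue scores and -0.93 without asymptomatic mice 2 to 5. For Lyve1 these values were -1.35 and -1.54. Among the high endothelial venule genes Glycam1 and Lifr were called, both below 0, and for Lifr, a cytokine receptor, the called change was a rise of 1.65 in the spleen. Glycam1 differed by -3.38 ± 0.67 (adjusted p = 0.00875), with lymphoma nodes at 5.80, 6.67 and 8.80 that overlapped the asymptomatic node of mouse 6. With the 3 tissue scores the differences were -2.02 for Glycam1 and -1.24 for Lifr, and without asymptomatic mice 2 to 5 they were -1.78 and -1.91. Smooth muscle genes had 5 of 9 below 0 and stem and progenitor genes 4 of 11 (Cd34, Hoxa5, Meis1 and Procr), with none above.

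Adipose genes are set beside the genes of these cells here, and no association between their levels was tested. Fat genes had 15 of 19 below 0 and none above, with a median of -2.68; Fabp4, the fatty acid carrier of adipocytes, differed by -4.44 ± 0.62, by -2.14 with the 3 tissue scores and by -2.37 without asymptomatic mice 2 to 5. With the 3 neighbouring tissue scores in the fit the list medians were -0.60 for blood endothelium, -0.51 for stroma, -0.19 for matrix, -0.66 for sinus macrophages, -0.37 for lymphatic genes and 0.13 for fat. Without asymptomatic mice 2 to 5 they were -0.90, -1.04, -0.52, -1.02, -0.62 and -0.35 in the same order. Values of single arrays are set beside this. The node of FVB/N mouse 3 had an adipose mean of 7.28 with blood endothelium at 8.45, stroma at 9.47 and sinus macrophages at 9.32. The node of asymptomatic mouse 6, with an adipose mean of 7.36, had 8.15, 8.59 and 8.94. The nodes of asymptomatic mouse 1 (7.13) and FVB/N mouse 1 (6.63) had lower means, with blood endothelium at 7.44 and 6.94, stroma at 7.57 and 7.39, and sinus macrophages at 7.28 and 6.98. The lymphoma nodes ranged from 6.71 to 7.11 for blood endothelium, 6.65 to 7.62 for stroma and 6.44 to 7.65 for sinus macrophages. Nodes with little fat RNA thus lay both above and within the lymphoma range. The higher ones carried other neighbouring tissue, with a salivary mean of 8.11 in FVB/N mouse 3 and a pancreas mean of 13.03 in asymptomatic mouse 6. In asymptomatic mouse 1 and FVB/N mouse 1 the salivary means were 5.38 and 5.15 and the pancreas means 6.06 and 5.81. The list means of those nodes lay within the lymphoma range, except for blood endothelium in asymptomatic mouse 1. The adipose mean was 7.13 to 10.88 in asymptomatic nodes and 6.37 to 6.92 in lymphoma nodes, without overlap. A fit with that score therefore cannot tell lymphoma and surrounding fat apart. The part of surrounding tissue in the falls was not tested.

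**Figure D4:**
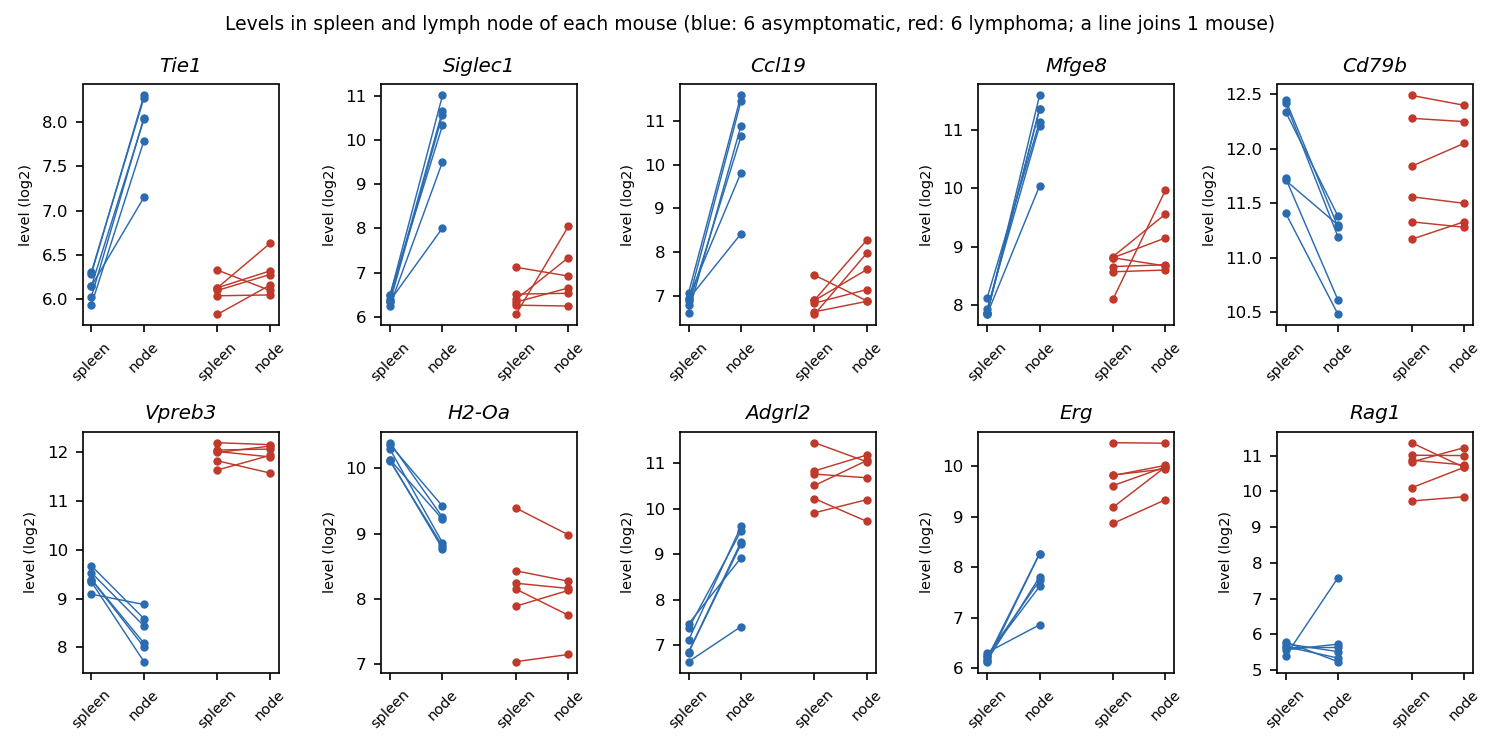
Log2 level of selected genes in every array, with spleen on the left and node on the right and a line joining the organs of 1 mouse (blue, 6 asymptomatic mice; red, 6 lymphoma mice). Tie1 and Siglec1 rise steeply from spleen to node in asymptomatic mice and little in lymphoma, Cd79b and Vpreb3 go down from spleen to node in asymptomatic mice and are level in lymphoma, and Rag1 is near 5 to 6 in asymptomatic organs except for 7.59 in the node of mouse 4.

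Some B lineage genes had the more positive change in the node. Of 19 mature B cell genes 6 had a difference above 0 (Cd37, Cd79a, Cd79b, Pou2af1, Ralgps2 and Siglecg) and none below, with a median of 0.86. The list's median change was -0.20 in the node and -1.16 in the spleen. Cd79b, a signalling chain of the B cell receptor, had levels of 10.48, 11.24 and 11.38 in asymptomatic nodes and 11.41, 12.03 and 12.45 in asymptomatic spleens. In lymphoma it stood at 11.28, 11.77 and 12.40 in nodes and 11.17, 11.70 and 12.49 in spleens. Spleens were above nodes in asymptomatic mice with no overlap, and the organs shared one range in lymphoma. The difference was 0.99 ± 0.14 (SE, adjusted p = 0.00229), and all 6 lymphoma mice lay above all 6 asymptomatic mice. Its partner Cd79a rose in the node by 1.14 and had a spleen change of 0.10, a difference of 1.05 ± 0.18 (adjusted p = 0.00476).

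The median of the mature B list was 0.84 with the 3 neighbouring tissue scores in the fit and 0.45 without asymptomatic mice 2 to 5, and none of its genes passed the test in either. With 6 surrogate variables estimated over all 30 arrays 114 genes were called, 51 above 0 and 63 below, among them 27 of the 118 named genes. Cd79b was 1 of these, at 1.13 with an adjusted p of 0.00122 in limma.

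Most early B cell genes rose in both organs, 16 of 20 in the node and 13 in the spleen. For some the change was more positive in the node. For organ dependence 4 were above 0 (Blnk, Ebf1, Pax5 and Vpreb3) and 1 below (Erg), while the list's median change was 1.97 in the node and 1.92 in the spleen. Vpreb3 rose by 3.67 in the node and 2.54 in the spleen. It had levels of 7.71, 8.27 and 8.88 in asymptomatic nodes, 9.09, 9.39 and 9.67 in asymptomatic spleens, 11.57, 11.99 and 12.15 in lymphoma nodes and 11.63, 12.00 and 12.19 in lymphoma spleens. The node started below the spleen without overlap and ended at the same level. The difference was 1.12 ± 0.20 (SE, adjusted p = 0.00513), 1.07 with the 3 neighbouring tissue scores. Blnk, the adaptor below the pre-B cell receptor, differed by 1.18 ± 0.22, Pax5 by 1.15 ± 0.24 and Ebf1 by 0.89 ± 0.19. In the spleen the groups overlapped for Pax5, with 10.23 to 10.74 in asymptomatic and 10.13 to 10.54 in lymphoma mice. They also overlapped there for Blnk, with 10.13 to 10.61 and 10.30 to 10.89. Blnk was at 1.05 and Pax5 at 1.12 with the 3 tissue scores, and without asymptomatic mice 2 to 5 they were at 0.71 and 0.69.

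The promoter of Vpreb3 is shown because its gene has the largest rise among the early B genes named here as organ-dependent, and because the octamer bound by Oct factors and their B cell partner Pou2af1 occurs in it. The 250 bases before its start lie at chr10:75948050-75948299 on the plus strand of GRCm38.p6 (RefSeq), 5′ to 3′, with the octamer letters (ATTTGCAT, searched on both strands) in capitals:
Vpreb3: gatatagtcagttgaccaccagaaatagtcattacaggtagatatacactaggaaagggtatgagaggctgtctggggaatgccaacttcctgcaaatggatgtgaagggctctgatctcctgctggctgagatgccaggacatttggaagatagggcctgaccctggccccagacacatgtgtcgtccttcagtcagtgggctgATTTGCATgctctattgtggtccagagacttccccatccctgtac
The octamer occurs in 1.6% of the 32817 windows. Gene and motif were chosen after the windows had been read, and the match is a description of the letters.

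Among the 124 genes that rose in the node only, the median change was 0.74 there and 0.06 in the spleen. All 124 were lower in the node than in the spleen of asymptomatic mice, which follows in part from the arithmetic of the tested difference. Cdh17, a cadherin also found on B cells, had levels of 5.22, 5.89 and 7.11 in asymptomatic nodes, 7.22, 7.41 and 7.88 in asymptomatic spleens, 6.55, 8.97 and 11.83 in lymphoma nodes and 6.18, 8.01 and 11.35 in lymphoma spleens. Its lymphoma levels spread widely between mice in both organs, and the difference within mice was 2.06 ± 0.24 (SE, adjusted p = 0.00183). Trem1, a receptor of neutrophils and monocytes, stood at 4.95, 5.34 and 6.29 in asymptomatic nodes and 7.04, 7.62 and 7.85 in asymptomatic spleens, and overlapped between the organs in lymphoma. It differed by 2.00 ± 0.35, and Plac8, a gene of myeloid and lymphoid cells, by 1.54 ± 0.29. Jhy rose in both organs, by 2.88 in the node and 1.45 in the spleen, and Susd1 by 2.38 and 1.16; both had started lower in the node. With the 3 tissue scores the difference was 1.60 for Trem1 and 1.42 for Jhy, and without asymptomatic mice 2 to 5 it was 1.28 and 0.95. Cdh17 was at 0.93 with the surrogate variables of all 30 arrays.

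Rag1, Igll1 and the genes of the cell cycle rose in both organs without a called difference. Rag1 had levels of 5.24, 5.59 and 7.59 in asymptomatic nodes, 5.40, 5.66 and 5.79 in asymptomatic spleens, 9.85, 10.70 and 11.22 in lymphoma nodes and 9.73, 10.84 and 11.36 in lymphoma spleens. The groups were far apart in both organs, and the asymptomatic node at 7.59 is that of mouse 4. Rag1 rose by 4.84 in the node and 5.01 in the spleen, and its difference of -0.17 ± 0.38 did not pass the test (adjusted p = 0.819) and was 0.23 without mouse 4 (adjusted p = 0.562). Igll1 rose by 5.40 and 5.20, with a difference of 0.19 ± 0.38 (adjusted p = 0.786), and 0.56 without mouse 4 (adjusted p = 0.216). Of 39 proliferation genes none was called for organ dependence; 39 rose in the node and 38 in the spleen, with median changes of 1.88 and 1.83. T lineage genes were likewise called in neither direction, 0 of 21, with 20 lower in the node and 21 in the spleen and median changes of -2.43 and -3.02. Called or not, 20 of these 21 differences were above 0, with a median of 0.46 against 0.089 over all genes. That median was -0.19 with the 3 tissue scores and 0.39 without asymptomatic mice 2 to 5. Cd3g, which encodes the CD3 gamma chain, had a difference of 0.56 ± 0.44 (adjusted p = 0.457). Missing the threshold does not show that the organs changed alike, since the SEs of these 3 genes were 0.38 to 0.44 log2 units.

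Antigen presentation genes fell in both organs, 12 of 13 in the node and 13 in the spleen, and some fell further in the spleen. For the difference 3 of the MHC class II and costimulation genes were above 0 (H2-DMa, H2-Oa and H2-Ob) and none below, with median changes of -1.37 in the node and -2.04 in the spleen. H2-Oa, part of the B cell regulator of class II peptide loading, had levels of 8.77, 9.04 and 9.42 in asymptomatic nodes and 10.11, 10.21 and 10.39 in asymptomatic spleens. In lymphoma the nodes stood at 7.15, 8.14 and 8.98 and the spleens at 7.04, 8.19 and 9.39. The spleen began higher, without overlap, and both organs ended in one range. The difference was 1.06 ± 0.15 (SE, adjusted p = 0.00197), and 0.60 with the surrogate variables of all 30 arrays. Tbx21, the transcription factor of type 1 lymphocytes and natural killer cells, fell by 0.90 in the node and 1.61 in the spleen, and Ccr6, a B cell homing receptor, by 1.49 and 2.24. With those surrogate variables the difference of Tbx21 went from 0.71 to 0.24, and that of Ccr6 turned from 0.74 to -0.13.

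Of the genes that rose in both organs, 10 rose further in the spleen. Adgrl2, an adhesion receptor, had levels of 7.41, 9.24 and 9.61 in asymptomatic nodes, 6.64, 6.98 and 7.47 in asymptomatic spleens, 9.72, 10.86 and 11.18 in lymphoma nodes and 9.91, 10.64 and 11.45 in lymphoma spleens. It rose by 1.66 in the node and 3.57 in the spleen, a difference of -1.91 ± 0.29 (SE, adjusted p = 0.00273), and the lymphoma organs shared a range. The difference was -1.01 with the 3 tissue scores, -1.08 without asymptomatic mice 2 to 5 and -0.28 with the surrogate variables of all 30 arrays. Erg, a transcription factor of both endothelium and early blood cells, rose by 2.20 in the node and 3.42 in the spleen (difference -1.23 ± 0.24, adjusted p = 0.00789). Its asymptomatic levels were 6.86, 7.77 and 8.27 in nodes and 6.13, 6.21 and 6.31 in spleens, and its lymphoma levels were 9.34, 9.99 and 10.46 and 8.87, 9.72 and 10.47. The node thus began higher and ended at the spleen's level. Its difference was -0.23 with the 3 tissue scores, -0.64 without asymptomatic mice 2 to 5 and 0.03 with surrogate variables estimated on the within-mouse differences.

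The 94 genes that rose in the spleen alone were all higher in the node than in the spleen of asymptomatic mice. This too follows in part from the arithmetic of the tested difference. Their median change was 0.99 in the spleen and -0.14 in the node. Cyyr1, a small membrane protein, had levels of 6.67, 8.64 and 8.96 in asymptomatic nodes and 5.24, 5.67 and 5.83 in asymptomatic spleens, against 5.90, 8.92 and 10.11 and 5.62, 9.08 and 10.24 in lymphoma. Its lymphoma range was wide in both organs and reached down to the asymptomatic spleens. It changed by 0.38 in the node, which did not pass the test, and rose by 3.09 in the spleen, a difference of -2.70 ± 0.35 (SE, adjusted p = 0.00186), with -1.33 under the 3 tissue scores, -1.69 without asymptomatic mice 2 to 5 and -0.75 with the surrogate variables of all 30 arrays. Vegfa, the vascular growth factor, rose in the spleen by 1.29 and had a node change of -0.39 (difference -1.68 ± 0.35). That difference was -0.15 with the 3 tissue scores, -0.95 without asymptomatic mice 2 to 5 and -0.08 with the surrogate variables of all 30 arrays. Me1, the malic enzyme that supplies NADPH for fat synthesis, rose in the spleen by 2.91, but its difference of -3.21 ± 0.87 turned to 0.70 with the 3 tissue scores and was -0.64 without asymptomatic mice 2 to 5.

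The 131 genes that fell in the spleen alone had a median change of -0.69 there and -0.03 in the node. Ceacam2, a cell adhesion molecule, had levels of 6.01, 6.28 and 8.59 in asymptomatic nodes and 7.94, 8.79 and 8.89 in asymptomatic spleens, and of 6.61, 7.82 and 9.01 and 6.69, 7.59 and 8.87 in lymphoma. Spleens stood above nodes in asymptomatic mice apart from the node of 1 mouse, and the organs overlapped throughout in lymphoma. The difference was 2.14 ± 0.40 (SE). Mmp12, the macrophage elastase, had a difference of 1.45 ± 0.32, with a spleen change of -1.52 and a node change of -0.07. S1pr3, a sphingosine phosphate receptor, differed by 1.40 ± 0.30, and Il5ra, a chain of the interleukin 5 receptor, by 1.25 ± 0.36. With the 3 tissue scores the differences were 1.62 for Mmp12, 2.20 for S1pr3 and 0.99 for Il5ra, and without asymptomatic mice 2 to 5 they were 0.96, 1.62 and 0.62.

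A few genes changed in opposite directions. Of the 17 genes of this kind, 15 fell in the node and rose in the spleen. Mfge8, made by follicular dendritic cells and used to clear dying cells, had levels of 10.04, 11.24 and 11.59 in asymptomatic nodes, 7.84, 7.86 and 8.12 in asymptomatic spleens, 8.60, 8.92 and 9.97 in lymphoma nodes and 8.10, 8.74 and 8.83 in lymphoma spleens. It fell in the node by 1.98 and rose in the spleen by 0.72, without overlap of asymptomatic and lymphoma mice in the node, and the difference was -2.71 ± 0.33 (SE, adjusted p = 0.00186). Il33, an alarm cytokine of stromal cells, fell in the node by 2.08 and rose in the spleen by 1.49. Its levels were 6.76, 9.42 and 9.94 in asymptomatic nodes and 5.19, 5.36 and 5.63 in asymptomatic spleens, and 6.08, 6.79 and 7.38 and 5.72, 7.07 and 7.61 in lymphoma. The organs again shared a range in lymphoma, and the difference was -3.57 ± 0.52 (adjusted p = 0.00237), with -1.86 under the 3 tissue scores and -2.23 without asymptomatic mice 2 to 5.

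A few dendritic cell and interferon response genes differed, with no common direction of their lists. Of 17 dendritic cell genes 3 were below 0 (Ccl17, Ccl22 and Fscn1) and 1 above (Cd209a), with a list median of -0.29. Fscn1, the actin bundler of mature dendritic cells, fell by 3.35 in the node and 1.70 in the spleen, a difference of -1.65 ± 0.39, and its adjusted p was 0.0544 without asymptomatic mouse 3 and 0.0501 without asymptomatic mouse 4. Ccl22 fell by 2.08 and 0.78, a difference of -1.30 ± 0.25. Fscn1 was at -0.93 and Ccl22 at -1.17 with the 3 tissue scores, and without asymptomatic mice 2 to 5 they were at -0.64 and -0.73. Of 24 interferon response genes 2 were called below 0 (Cxcl10 and Cxcl9), a share near the 5.27% of all genes, and 1 above (Stat2). Called or not, 16 of the 24 differences were above 0, with a median of 0.26. Both medians turned with the 3 tissue scores, to 0.19 for dendritic cell and -0.21 for interferon genes, and without asymptomatic mice 2 to 5 they were 0.16 and -0.01. Cxcl10, a chemokine for activated T cells, had levels of 7.28, 7.67 and 8.29 in asymptomatic nodes, 5.88, 6.48 and 6.62 in asymptomatic spleens, 5.51, 6.14 and 6.63 in lymphoma nodes and 5.54, 6.16 and 6.68 in lymphoma spleens. Only the asymptomatic nodes stood apart, and the difference was -1.45 ± 0.25 (SE). Cxcl10 was the 1 gene called without asymptomatic mice 2 to 5, with an adjusted p of 0.0351 in limma on 2 against 6 mice.

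Ccl3, a chemokine of activated macrophages and B cells, is an example of the 225 genes in which neither organ's change was called. Its levels were 6.40, 7.17 and 8.21 in asymptomatic nodes and 8.22, 9.27 and 10.48 in asymptomatic spleens, and 6.42, 7.30 and 9.39 and 6.51, 7.95 and 8.78 in lymphoma. Node and spleen ranges met only at their edge in asymptomatic mice and overlapped widely in lymphoma. The node change was 0.35 and the spleen change -1.60, neither past the test, while the difference was 1.95 ± 0.34. The within-organ test had no batch term, and the spleen levels differed between array batches. Asymptomatic spleens stood at 10.25 to 10.48 in the first batch and 8.22 to 8.28 in the second. Lymphoma spleens stood at 8.19 to 8.78 and 6.51 to 7.71. Within each batch the spleens of the states did not overlap, so the missing call does not show that Ccl3 was unchanged there. The related chemokine Ccl4 differed by 0.84 ± 0.22 (0.73 with the 3 tissue scores and 0.51 without asymptomatic mice 2 to 5), and these were the 2 of 15 NF-kB pathway genes called.

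**Figure D5:**
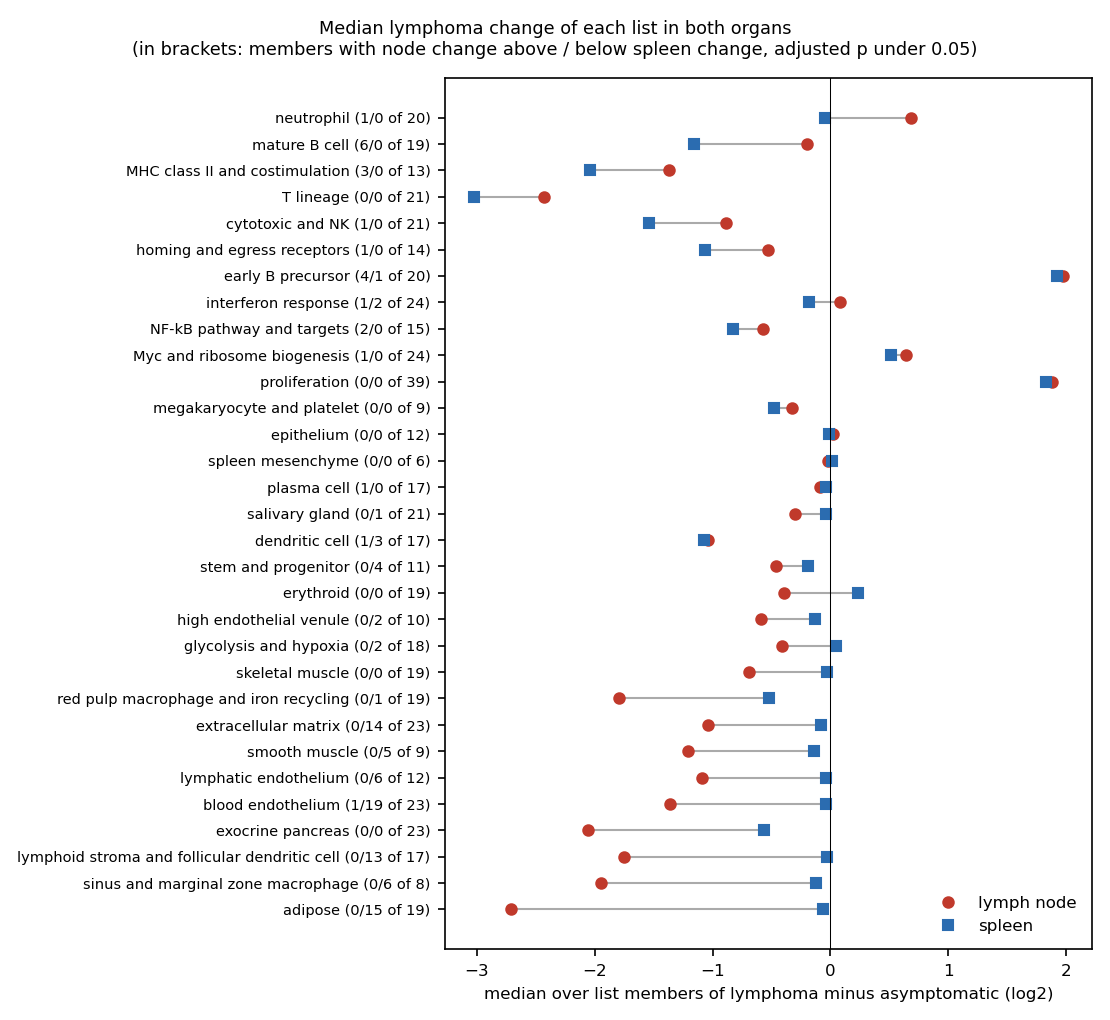
Median lymphoma change of each gene list in node and in spleen (log2 units), with the count of genes called for organ dependence beside each list. Blood endothelium lies at -1.36 in node and -0.04 in spleen, proliferation at 1.88 and 1.83, and T lineage at -2.43 and -3.02.

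The remaining lists held few organ-dependent genes. Of 21 cytotoxic and natural killer genes 1 was above 0 (Tbx21), of 17 plasma cell genes 1 (Mzb1) and of 20 neutrophil genes 1 (Mmp9). The same held for 1 of 24 Myc and ribosome biogenesis genes (Nop56) and 1 of 14 homing genes (Ccr6). None of these lists had a gene called below 0. Over all genes 2.23% were above 0 and 5.27% below, so 1 call is not read as a result about a list. Called or not, 16 of 20 neutrophil differences (median 1.05) and 20 of 21 cytotoxic ones (median 0.45) were above 0. The same was true of 12 of 14 homing genes (0.38), 19 of 24 Myc genes (0.16) and 6 of 17 plasma cell genes (-0.09). These medians, beside 0.089 over all genes, were not tested. Glycolysis and hypoxia had 2 of 18 below 0 (Tpi1 and Vegfa), and the salivary list 1 of 21 (Amy1). None was called among the erythroid, megakaryocyte, pancreas, skeletal muscle, epithelium and spleen mesenchyme genes.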

How the data were processed

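RNA of the lymph node and the spleen of 15 mice was hybridised to 30 arrays of the Affymetrix type Mouse Gene 1.0 ST, of which 24 (6 asymptomatic and 6 lymphoma mice) entered the comparison. The deposited values are log2 levels that the authors normalized at probe level with fRMA, per the series' design text, with filters and versions not given in the sources used here; depth has no meaning for arrays, and the number of mice limits the precision. The values lay between 2.07 and 14.43, with array medians of 6.67 to 6.89. Of 35556 probe sets, 21789 had 1 gene symbol in GEO's platform annotation, 1621 had several and were left out, and 12146 were not listed; 21698 were matched to RefSeq. For the 999 genes with more than 1 probe set the one with the highest mean was used.

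Node minus spleen was taken per mouse and compared between groups with limma 3.58.1 (lmFit, eBayes; R 4.3.3), which equals the interaction of state and organ with the mouse as a block, and p-values were Benjamini-Hochberg adjusted over 19938 genes. Within each organ 6 arrays were compared with 6 in the same way. Single values were tested by exact permutation, and the procedure was tested on simulated data. Python 3.11.15 made the summaries. The numbers pair the samples, since they name the mouse: deviations of node and spleen of 1 mouse from their group means correlated at 0.14 to 0.68 (median 0.43), over 0.1 in 12 of 12 mice, and the organs of 10 mice matched each other best. Xist was at 10.91 to 11.93 in both organs of lymphoma mice 3 and 5 and in no other of the 12 mice, and a fit without these mice is among the alternatives. The labels name mice and do not state whether they shared litters or cages. The closest arrays of 1 group differed at every gene, so none was a copy of another.

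The members, gene lists and alternatives were chosen with earlier results of these data known. Named genes are, per organ class and direction, the 6 with the largest difference among called genes with the same sign in both array batches, leaving out predicted, clone-named, small RNA, receptor segment and olfactory genes and genes of the neighbouring tissue lists; up to 4 members of each list with the smallest p; sex-linked genes for the pairing check; and Rag1, Igll1 and Cd3g. Alternatives were the block, the batch, surrogate variables, neighbouring tissue scores, normalization, the filter on dim genes, the choice of probe set, the moderation of variances and leaving out mice. The fit with 4 neighbouring tissue scores and the one without asymptomatic mice 3 and 4 were added after seeing the data.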

Additional observations from a re-analysis of the deposited data

Results flagged for a closer look

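The count of 1495 genes whose change with lymphoma differed between node and spleen comes from a test of that difference itself. The entries that follow are node-minus-spleen differences (log2) of 1 mouse that lay far from those of the other 5 mice of its group by Dixon's criterion. Of 386 groups of 6 values tested 48 were picked out this way, where chance picks about 1 in 20 groups, and 45 of them are values of named genes. Asymptomatic mouse 6 supplied 15 of these and asymptomatic mouse 1 supplied 12.

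In asymptomatic mouse 6, whose node array carried spleen transcription factor and erythroid genes, the difference was 2.72 for Tcf21, 1.89 for Tlx1, 1.75 for Sptb, 1.42 for Car2 and 0.52 for the platelet gene Gp5. For leukocyte genes it was -0.68 for Ell3, -0.66 for Cyp4f18, -0.75 for Trem1, -0.08 for Mmp12, -0.27 for Gapt, -0.36 for Clec4a4, -0.01 for Blnk, -0.40 for Cd79b, 0.49 for Cd244a and -0.92 for Eomes.

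Asymptomatic mouse 1, whose node had the lowest stromal and adipose means of its group, was low for vessel and stroma genes, with 2.62 for Sparc, 0.52 for Lifr, 0.61 for Flt4, 1.01 for Tie1, 1.02 for Tek, 1.65 for Clu, 0.28 for Mylk and 0.21 for Acta2. It was low for macrophage genes too, at -0.81 for C1qb, -0.57 for Axl and 0.97 for Marco, and stood above its group for Rela at 0.22. Asymptomatic mouse 3 had 1.26 for Epcam. Asymptomatic mouse 4 had 2.19 for Rag1 and 2.22 for Igll1, from node levels of 7.59 and 8.82.

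Among the lymphoma mice, mouse 1 had -2.49 for Epor and 0.58 for Ttn, and mouse 2 had 0.63 for Pax5, -2.23 for Cd86, -0.82 for Fscn1 and -1.09 for Car3. Mouse 3 had 1.36 for Cdh17 and 0.25 for Eno3, and mouse 4 had -0.13 for Eln and 1.66 for Igll1. Mouse 5 had -0.71 for Asb2, -0.21 for Themis2, 3.32 for Amy1, 1.13 for Smr3a and -0.43 for Neb. Of the list means, the salivary mean was 7.0 in the node of lymphoma mouse 5, the pancreas mean 6.58 in the spleen of lymphoma mouse 1 and the muscle mean 6.30 in the spleen of asymptomatic mouse 5.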

How the results depend on the processing

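The 1495 calls became 761 without the replicate block, 23 in the first array batch and 533 in the second, 114 with surrogate variables of all 30 arrays, 0 with those of the within-mouse differences (991 at an unadjusted p under 0.05), 0 with 3 and 0 with 4 neighbouring tissue scores (723 and 650), 995 without asymptomatic mice 5 and 6, 1 without mice 2 to 5, 280 without mice 3 and 4, 631 without lymphoma mice 3 and 5, 2894 with arrays centred and 747 at a size of at least 1 log2 unit. Leaving out 1 mouse gave 827 to 2947. The 872 genes called in the node only became 10 and 388 within the batches, 1 without asymptomatic mice 2 to 5, 192 without mice 3 and 4, 410 without lymphoma mice 3 and 5, and 1533 with centring (533 to 1651 leaving out 1 mouse). The 225 called in the spleen only became 3 and 47, 118 without asymptomatic mice 5 and 6, 0 without mice 2 to 5, 24 without mice 3 and 4, 85 without lymphoma mice 3 and 5, 443 with centring and 91 with within-organ changes of at least 1 log2 unit (92 to 364 leaving out 1 mouse). The distance between organs was lower by batch with -0.0534 and -0.0736 (exact permutation p = 0.3 and 0.1) and -0.077 to -0.0543 leaving out 1 mouse. The quantile, random block, batch term, dim gene, mean probe set, and trend and robust settings gave 1251 to 1725 calls.

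Of the values of named genes 1131 lost the call, 67 gained one and 4316 kept their side of the threshold. A turned sign was counted only for the 118 called genes, in 38 values. Sign changes of genes not called were not counted, as for Cd3g, at 0.56 in the reported fit and -0.38 in the first array batch. With surrogate variables on the differences the difference became 0.49 for Igfbp7, 0.35 for Sparc, 0.32 for Cebpa, 0.76 for Bgn, 0.03 for Erg, 0.08 for Map3k20, 0.31 for Bche, 0.22 for Deptor, 0.67 for Pdk4, 1.15 for Cox8b, 0.47 for Me1, 1.02 for Prkar2b, 0.04 for Flt4, 0.26 for Prox1, 0.33 for Lama4, 0.01 for Myh11, 0.77 for Acta2, 1.85 for Amy1, 0.04 for Dgat2 and 0.69 for Cxcl9. With 3 neighbouring tissue scores it became 0.02 for Cebpa, 0.00 for Bche, 0.46 for Cox8b, 0.70 for Me1, 0.83 for Prkar2b and 0.04 for Cxcl9, and with 4 it became 0.02, 0.04, 0.45, 0.80 and 0.84 for the first 5. With surrogate variables of all 30 arrays it became 0.19 for Reln, 0.01 for Map3k20, 0.00 for Asns, 0.30 for Me1, 0.41 for Meis1, 0.07 for Tpi1 and -0.13 for Ccr6. The cause was not tested. Covariates leave fewer degrees of freedom among 12 mice, and genes near the bottom of the array's range in spleen limit what a fall there can show.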

Other observations

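The node of asymptomatic mouse 4 had Rag1 at 7.59, between the median of 5.59 in asymptomatic nodes and that of 10.70 in lymphoma nodes, and Igll1 at 8.82, between medians of 6.67 and 12.35. Its early B precursor mean was 8.27, the highest of the 6 asymptomatic nodes. Its proliferation mean was 7.63, within the asymptomatic range of 7.47 to 8.08.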
